A study of Homo sapiens with 4 samples.

Results

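The genes described here encode BTB-domain proteins of the kind that serve as substrate receptors of CUL3 ubiquitin ligases. They were chosen by name, as every gene of the sgRNA library called KLHL, KBTBD or KCTD with a number, together with SPOP and SPOPL, and KEAP1 was left out. The rule found 69 of 19111 genes, namely 37 KLHL genes, 21 KCTD genes, 9 KBTBD genes, SPOP and SPOPL. Each had 4 sgRNAs, giving 276 sgRNAs, and all of them had reads. The rule uses names and no measured value.

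The experiment was a pooled CRISPR-Cas9 knockout screen in A549, a human lung adenocarcinoma cell line, with the genome-wide Brunello sgRNA library. All cells carried the library and had been selected in 10 µg/ml puromycin for 1 week. The HQ461 cells were then kept in 4 µM HQ461 and the control cells in 0.1% DMSO for 3 weeks, with passaging every 2 days. HQ461 is a small molecule. The series title, which does not name it, speaks of a molecular glue that brings CDK12 and DDB1 together and leads to cyclin K degradation. CDK12 is a kinase and DDB1 is the CUL4 adaptor. The screen asked which knockouts changed in share under the compound. The labels name 2 replicates per condition, the count table holds 1 column per condition, and the way they were combined is not stated in any source at hand. No replicate error could therefore be computed and no test was made. Every difference below describes these columns from a single cell line and covers neither biological nor technical spread. The intervals given cover counting error only.

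In a CUL3 ligase the BTB domain of the receptor binds the cullin, and another domain of the same protein holds the substrate. KLHL proteins and most KBTBD proteins carry kelch repeats that form a propeller for the substrate, SPOP and its paralog SPOPL hold substrates with a MATH domain, and KCTD proteins have a BTB domain without kelch repeats. The label "Kelch-like" therefore fits the KLHL and KBTBD genes alone, and some KCTD proteins are known for work outside ubiquitin ligases. Counts of sgRNAs cannot show whether a protein binds CUL3, so the grouping rests on names and domains.

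Library totals were 16127620 counts with HQ461 and 14428845 with DMSO. The sgRNAs of the receptor genes held 0.381% of the HQ461 counts (95% exact binomial interval 0.378 to 0.384%) and 0.379% of the DMSO counts (0.376 to 0.382%). Single receptor sgRNAs had 29 to 513 counts with DMSO and 5 to 2280 with HQ461. A gene value is the median over the 4 sgRNAs of the log2 ratio of normalized HQ461 over normalized DMSO counts, so that 1 is a 2-fold higher share with HQ461 and -1 a 2-fold lower share. The yardstick for a single sgRNA was the 997 non-targeting control sgRNAs with counts. Their log2 ratios had a median of -0.04, a 1st percentile of -1.67 and a 99th percentile of 2.92. Control sgRNAs were deeper, with median counts of 368 with HQ461 and 525 with DMSO, beside 122 and 173.5 for receptor sgRNAs. The control range may therefore be too narrow for receptor sgRNAs with few counts, which was not tested.

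As a group the receptor genes sat close to the middle of the library. Their gene values had a median of -0.08, with quartiles at -0.37 and 0.48, beside a median of -0.02 over all genes with quartiles at -0.46 and 0.44. The values ran from -1.75 for KLHL3 to 2.70 for KCTD8, and 59 of the 69 lay between -1 and 1. Of the 69, 38 were below 0, which is 55.1%, beside 51.3% of all genes.

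At or above a gene value of 1 there were 7 receptor genes, or 10.1%, beside 9.01% of all genes. They were KCTD8, SPOP, KCTD2, KCTD15, KLHL11, KLHL33 and KCTD9. At or below -1 there were 3, KLHL3, KBTBD12 and KLHL1, or 4.35%, beside 7.69% of all genes. Scaling by total counts in place of median ratios moved the median of all genes from -0.02 to -0.70. This split then went from 7 above and 3 below to 1 above and 21 below, beside 2.72% and 32.1% of all genes. Under either scaling the shares past the threshold stood near those in the library, and nothing about the family as a whole is read from them.

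**Figure D1:**
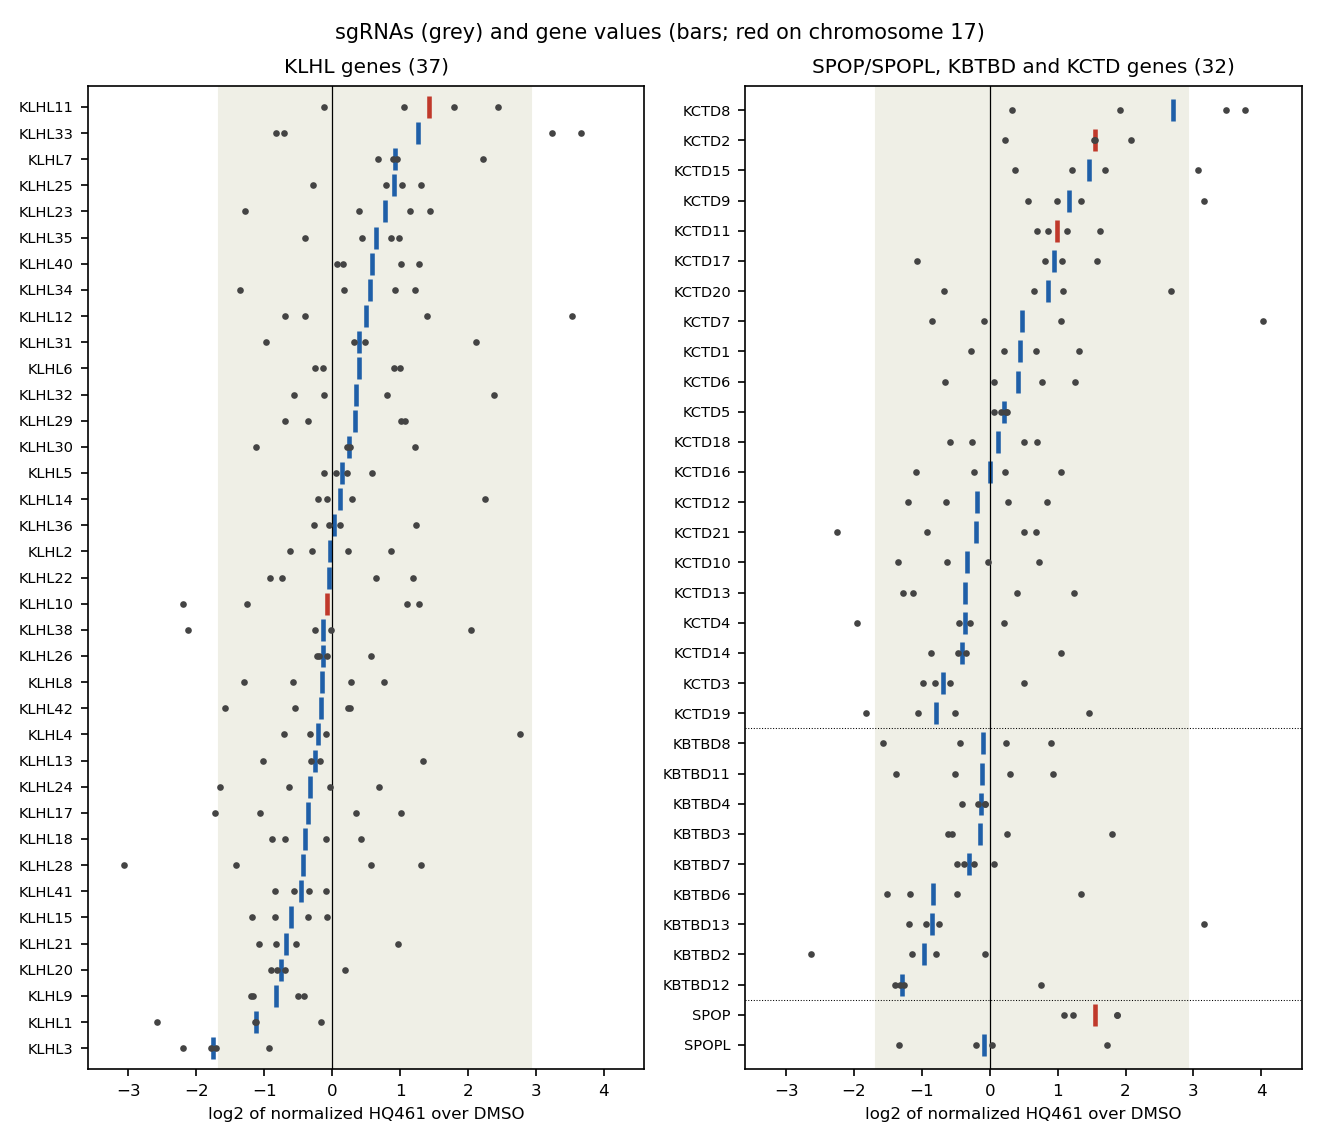
Log2 of normalized HQ461 over DMSO counts (x axis) for each receptor gene (y axis), with dots for its 4 sgRNAs and a bar for the gene value, red on chromosome 17 and blue elsewhere. The shaded band is the 1st to 99th percentile of the non-targeting controls, from -1.67 to 2.92. Gene values run from -1.75 for KLHL3 to 2.70 for KCTD8, and all 9 KBTBD genes are below 0.

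The sgRNAs of a gene often disagreed, as the plot of all receptor genes by family shows. In 53 of the 69 genes the 4 sgRNAs lay on both sides of 0. All 4 were above 0 in 9 genes, or 13.0%, beside 10.3% of the genes with 4 measured sgRNAs, and all 4 were below 0 in 7 genes, or 10.1%, beside 9.00%. The range between the lowest and the highest sgRNA of a receptor gene had a median of 2.15 log2 units, beside 2.14 over 18858 genes. It was narrowest for KCTD5 at 0.18 and widest for KCTD7 at 4.87.

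SPOP, a receptor whose known substrates include steroid receptor coactivators, was the 663rd highest gene of the library. Its 4 sgRNAs had 74, 97, 61 and 84 counts with DMSO and 110, 158, 158 and 217 with HQ461, for log2 ratios of 1.09, 1.22, 1.88 and 1.88. All 4 were thus more abundant with HQ461 and differed among themselves by less than 1 log2 unit, and the gene value was 1.55, a 2.93-fold higher share. Over the summed counts the log2 ratio was 1.55, with a counting interval of 1.36 to 1.75. None of the 4 left the range of the non-targeting controls.

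SPOP lies on chromosome 17 (GRCh38 17, 49598884 to 49678163, minus strand), whose genes stood high as a whole in this table. The 1083 genes placed on chromosome 17 had a median gene value of 0.97, beside -0.06 for the 17633 genes placed elsewhere. Among the 20 library genes nearest to SPOP the median was 1.21, and 15 of the 20 were below SPOP. What raised the chromosome was not tested.

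SPOPL, the paralog of SPOP on chromosome 2, had a gene value of -0.08. Counts of its sgRNAs with DMSO were 166, 119, 372 and 321, and with HQ461 they were 45, 72, 263 and 742, for log2 ratios of -1.34, -0.20, 0.03 and 1.73. They scattered around 0 where those of SPOP did not, and the 2 gene values were 1.63 apart. The encoded proteins are 84.5% identical over 374 aligned residues, and their coding sequences share no 20-base word followed by NGG, the target of a Cas9 sgRNA.

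KLHL3 had the lowest value of all receptor genes. Its protein is the receptor through which CUL3 marks WNK kinases in the kidney, and mutations in it cause familial hyperkalaemic hypertension. With DMSO its sgRNAs had 57, 241, 154 and 154 counts, and with HQ461 they had 8, 48, 32 and 56, for log2 ratios of -2.19, -1.78, -1.71 and -0.92. All 4 were lower with HQ461, and 3 of them lay below the 1st percentile of the controls, a number that no other receptor gene reached. The gene value was -1.75, a 3.36-fold lower share and the 277th lowest of the library, and the ratio of the summed counts, 606 with DMSO and 144 with HQ461, was -1.55 on the log2 scale (-1.82 to -1.28). On chromosome 5 (GRCh38 5, 137617500 to 137736089, minus strand) none of its 20 nearest library genes was as low, and their median was -0.40.

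KLHL2, its closest paralog with 77.0% identity over 587 residues, is also known to act on WNK kinases. It had 248, 265, 508 and 228 counts with DMSO and 112, 149, 414 and 288 with HQ461, for log2 ratios of -0.62, -0.30, 0.23 and 0.86. The gene value was -0.04, and the sgRNAs of KLHL2 and KLHL3 did not overlap.

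KLHL1, a kelch protein found mainly in the nervous system, had a gene value of -1.12. The sgRNAs had 109, 188, 42 and 172 counts with DMSO and 12, 59, 13 and 106 with HQ461, for log2 ratios of -2.58, -1.13, -1.12 and -0.17. All 4 were lower with HQ461, although the last of them only slightly. The summed counts gave -0.90 on the log2 scale (-1.15 to -0.66). In its paralogs KLHL4 and KLHL5 the gene values were -0.20 and 0.14.

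At the high end of the KLHL genes stood KLHL11 and KLHL33. KLHL11, best known as the target of autoantibodies in an encephalitis linked to testicular cancer, had 88, 220, 170 and 352 counts with DMSO and 56, 319, 413 and 1332 with HQ461, for log2 ratios of -0.12, 1.06, 1.80 and 2.44. Its gene value of 1.43 was no higher than its surroundings on chromosome 17 (GRCh38 17, 41848518 to 41865423, minus strand), where the 20 nearest library genes had a median of 1.54 and 8 of them were lower. KLHL10, a testis-specific receptor needed for spermatid maturation, ends 134 bases before KLHL11 on the opposite strand. The sgRNAs of KLHL10 had 44, 267, 165 and 51 counts with DMSO and 6, 77, 247 and 87 with HQ461, for log2 ratios of -2.20, -1.26, 1.10 and 1.28. Midway between these opposed pairs, its gene value of -0.08 was lower than those of all 20 neighbours.

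KLHL33 reached 1.26 with sgRNAs that fell into opposed pairs. A first pair had 178 and 100 counts with DMSO and 69 and 42 with HQ461, for log2 ratios of -0.83 and -0.71. The other pair had 158 and 123 counts with DMSO and 1041 and 1089 with HQ461, for log2 ratios of 3.24 and 3.66, both above the 99th percentile of the controls. The gene value is the midpoint of a gap of almost 4 log2 units and stands for none of the 4 sgRNAs, and with the highest sgRNA of each gene removed it became -0.71, or -0.40 relative to all genes. All 20 neighbours on chromosome 14 were lower than 1.26, with a median of -0.33.

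**Figure D2:**
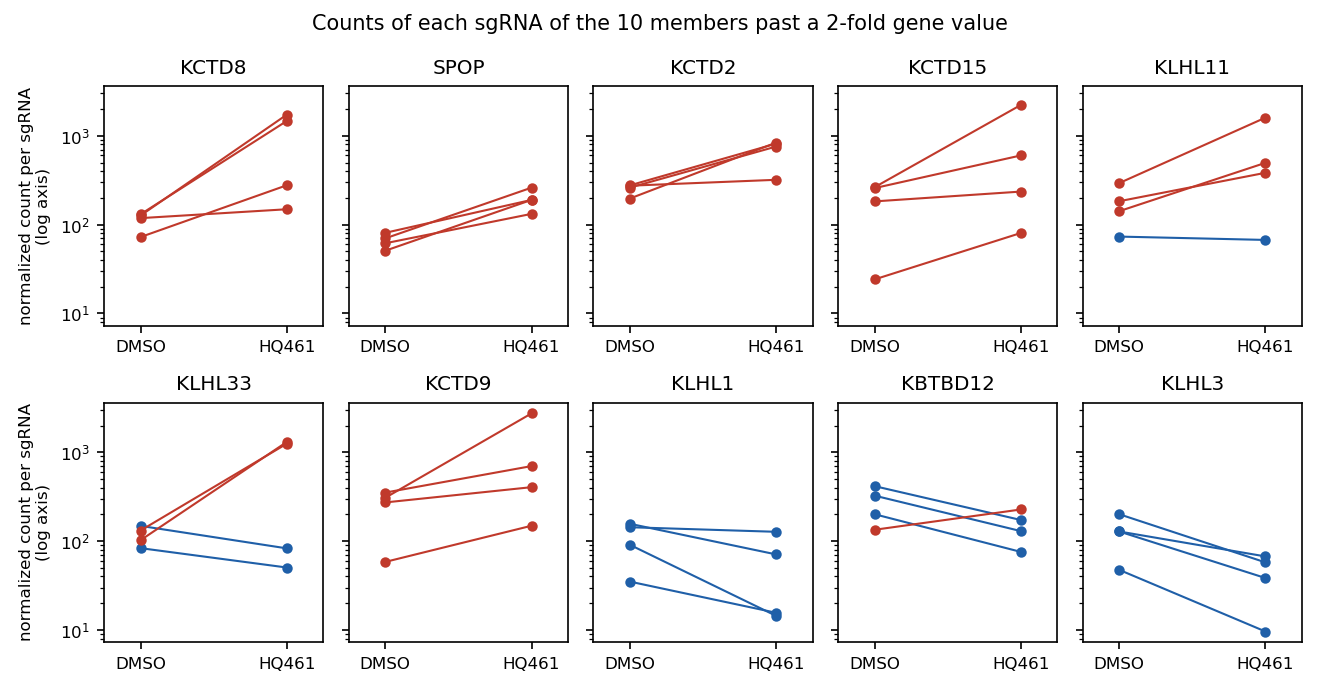
Normalized counts (y axis, log scale) with DMSO and with HQ461 (x axis) for the 4 sgRNAs of each receptor gene past a 2-fold gene value; each line is 1 sgRNA, red where its log2 ratio is above 0 and blue where it is below. All 4 lines go up in KCTD8, SPOP, KCTD2, KCTD15 and KCTD9, all 4 go down in KLHL1 and KLHL3, and KLHL33 has 2 lines in each direction.

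Among the other KLHL genes no value passed the threshold. Just short of it lay KLHL7, mutated in a form of retinitis pigmentosa, at 0.93 and KLHL25, a receptor for the translation repressor 4E-BP1, at 0.91. On the low side were KLHL9 at -0.83, KLHL20 at -0.76, KLHL21 at -0.68 and KLHL15 at -0.60. KLHL9, KLHL13 and KLHL21 are known to act on Aurora B in mitosis. KLHL9 had 156, 95, 182 and 237 counts with DMSO and 47, 29, 89 and 123 with HQ461, so that all 4 sgRNAs were lower, and KLHL13 had a gene value of -0.25 with sgRNAs from -1.02 to 1.35. KLHL22, a receptor for DEPDC5, stood at -0.04, and the 37 KLHL genes had a median of -0.04.

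KLHL40 and KLHL41 encode muscle proteins that are both mutated in nemaline myopathy, and they lay on opposite sides of 0. For KLHL40 the counts were 66, 121, 72 and 152 with DMSO and 48, 94, 102 and 258 with HQ461, for log2 ratios of 0.07, 0.16, 1.02 and 1.28. For KLHL41 they were 200, 201, 212 and 132 with DMSO and 77, 94, 116 and 86 with HQ461, for log2 ratios of -0.84, -0.57, -0.34 and -0.09. The gene values were 0.59 and -0.45, both short of the threshold, and the sgRNAs of the pair did not overlap.

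The 9 KBTBD genes were all below 0, beside 51.3% of all genes. Their gene values ran from -1.29 for KBTBD12 to -0.10, with a median of -0.31. They were also all below the median of all genes. Other ways of forming the gene value shift all genes, and 7 of 9 were below the median of all genes with the mean over sgRNAs, 7 of 9 with summed counts, and 8 of 9 with the highest or with the lowest sgRNA of each gene removed. Only KBTBD12 passed the threshold, and it had 241, 390, 499 and 161 counts with DMSO and 63, 108, 144 and 189 with HQ461, for log2 ratios of -1.40, -1.32, -1.26 and 0.75. In KBTBD12 3 sgRNAs lay close together and the fourth went the other way, and the summed counts gave -0.83 on the log2 scale (-0.98 to -0.68).

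KBTBD2, the receptor for the PI3K subunit p85 alpha, was just short of the threshold at -0.97. Its counts were 51, 208, 71 and 149 with DMSO and 5, 65, 28 and 98 with HQ461, and all 4 sgRNAs were lower. KBTBD13, another nemaline myopathy gene, stood at -0.84 although 1 of its sgRNAs went from 167 to 1043 counts, a log2 ratio of 3.16 and above the 99th percentile of the controls. KBTBD4, a receptor mutated in medulloblastoma, had 274, 355, 204 and 100 counts with DMSO and 143, 218, 135 and 66 with HQ461, for a gene value of -0.12.

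KBTBD6 and KBTBD7 form a common receptor complex for the Rac1 activator TIAM1 and lie 57032 bases apart on chromosome 13. KBTBD6 had 352, 220, 371 and 389 counts with DMSO and 85, 67, 184 and 687 with HQ461, for a gene value of -0.83, and KBTBD7 had 125, 192, 168 and 97 with DMSO and 62, 102, 99 and 70 with HQ461, for -0.31. Their proteins are 89.8% identical, and their coding sequences share 102 of the 263 and 253 words of 20 bases before NGG that each contains. An sgRNA to a shared word would match both genes, and since the table gives no sgRNA sequences, whether any of these 8 sgRNAs does so was not tested.

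Of the 21 KCTD genes, 13 were above 0 and 8 below, beside 51.3% of all genes below 0. None was at or below -1, beside 7.69% of all genes. The median of the 21 was 0.21, which was 0.23 above the median of all genes. The distance was 0.23 with total-count scaling and 0.22 with the highest sgRNA of each gene removed, although the medians themselves were then -0.48 and -0.09. It shrank to 0.025 with summed counts. With chromosome 17 and proximal 11q left out, the KCTD median was 0.12 and the distance 0.20. KCTD8, an auxiliary subunit of GABA-B receptors, had the highest value of all receptor genes and was the 74th highest gene of the library. With DMSO its sgRNAs had 142, 87, 157 and 152 counts, and with HQ461 they had 124, 231, 1223 and 1441, for log2 ratios of 0.33, 1.92, 3.48 and 3.76. A pair of sgRNAs thus passed the 99th percentile of the controls, 1 was intermediate and 1 was close to 0. The gene value was 2.70, a 6.50-fold higher share, and the summed counts, 538 with DMSO and 3019 with HQ461, gave 3.02 on the log2 scale (2.88 to 3.15).

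KCTD8 lies on chromosome 4 (GRCh38 4, 44173903 to 44448809, minus strand), where its 20 nearest library genes were all lower and had a median of 0.00. The other auxiliary subunits, KCTD12 and KCTD16, had gene values of -0.19 and 0.00, with sgRNAs between -1.20 and 1.05. Their proteins are 60.6% and 63.6% identical to KCTD8, and no 20-base target word is shared among the genes.

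KCTD2, KCTD5 and KCTD17 form a subgroup of CUL3 receptors in which KCTD5 is known to act on G-protein beta-gamma subunits. KCTD2 had 329, 313, 332 and 236 counts with DMSO and 266, 630, 679 and 698 with HQ461, for log2 ratios of 0.22, 1.53, 1.56 and 2.09 and a gene value of 1.54. It lies on chromosome 17 (GRCh38 17, 75032575 to 75065889, plus strand) among genes with a median of 0.61, and 19 of its 20 neighbours were lower. KCTD5 had 187, 341, 74 and 242 counts with DMSO and 136, 266, 61 and 200 with HQ461, so that its log2 ratios, from 0.07 to 0.25, were the most uniform among all receptor genes. KCTD17 lay between them at 0.94, with sgRNAs from -1.07 to 1.58. Its 20 neighbours on chromosome 22 had a median of 0.685, and 15 of them were lower.

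KCTD15 and KCTD1, repressors of the transcription factor AP-2, had gene values of 1.46 and 0.44. KCTD15 had 219, 309, 29 and 316 counts with DMSO and 196, 500, 67 and 1849 with HQ461, for log2 ratios of 0.37, 1.22, 1.69 and 3.07. KCTD9, which carries pentapeptide repeats, had 327, 422, 70 and 369 counts with DMSO and 337, 582, 124 and 2280 with HQ461, for log2 ratios of 0.57, 0.99, 1.34 and 3.15 and a gene value of 1.16. In both genes all 4 sgRNAs were above 0 and 1 of them far exceeded the others, and with that sgRNA removed from these and the highest from every other gene, KCTD15 stood 1.53 and KCTD9 1.30 above the median of all genes.

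KCTD11, KCTD21 and KCTD6 are adaptors through which CUL3 acts on HDAC1 in Hedgehog signalling. KCTD11 stood just below the threshold at 1.00 (0.996), with 355, 277, 290 and 118 counts with DMSO and 400, 349, 443 and 254 with HQ461. All 4 sgRNAs were higher, and on chromosome 17 (GRCh38 17, 7351889 to 7354944, plus strand) the median of its neighbours was 1.09, with 7 of 20 below it. KCTD21 and KCTD6, which lie elsewhere, had gene values of -0.20 and 0.42.

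KCTD10, KCTD13 and TNFAIP1 encode the receptors for the GTPase RhoA, and TNFAIP1 falls outside the naming rule. KCTD10 and KCTD13 had gene values of -0.33 and -0.37, each with sgRNAs on both sides of 0. TNFAIP1 stood at 2.74, with 99, 175, 283 and 105 counts with DMSO and 159, 499, 2146 and 1184 with HQ461, for log2 ratios of 1.20, 2.03, 3.44 and 4.01. It lies on chromosome 17 among genes with a median of 1.74, of which 18 of 20 were below it. The low end of the KCTD genes was held by KCTD19, a meiotic protein, at -0.79 and KCTD3, a partner of HCN channels, at -0.69.

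The 12 paralog groups made 22 pairs, with protein identities from 38.6% to 92.8%. In 11 pairs, or 50.0%, the gene values were at least 1 log2 unit apart, beside 32.7% of all pairs of library genes with 4 measured sgRNAs, and 5 of the 11 set a gene of chromosome 17 against a gene elsewhere. In 5 pairs, or 22.7%, the sgRNAs of the paralogs did not overlap, beside 7.48% of all pairs, namely KLHL2 with KLHL3, KLHL1 with KLHL5, KLHL40 with KLHL41, KCTD10 with TNFAIP1, and KCTD21 with KCTD11. The last 2 of these again have just 1 gene on chromosome 17. The 22 pairs share genes and are not independent, so nothing particular to paralogs is read from these shares. Another 4 pairs beside KBTBD6 and KBTBD7 shared target words, from 1 word for KCTD10 or KCTD13 with TNFAIP1 to 7 for KLHL9 with KLHL13.

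Several of the high values lay on chromosome 17. Of the 5 receptor genes on chromosome 17, SPOP, KCTD2, KLHL11, KCTD11 and KLHL10, 3 were at or above 1, beside 48.9% of all genes placed on the chromosome, and their median was 1.43. The 64 receptor genes elsewhere had a median of -0.12, with 4 (6.25%) at or above 1 and 3 (4.69%) at or below -1, beside 6.44% and 8.11% of all genes placed elsewhere. These member shares stood near those of the library. Against the median of their own 20 nearest library genes, 37 of the 69 were higher. KCTD8 and KLHL33 exceeded all of their neighbours, and KLHL3 and KLHL10 were below all of theirs. The matching shares over all library genes were not computed, so nothing about the family is read from these comparisons with neighbours.

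Single sgRNAs outside the range of the controls were found in genes with ordinary values as well. Above the 99th percentile were 9 of the 276 receptor sgRNAs, or 3.26%, beside 2.44% of all targeting sgRNAs, and they belonged to 7 genes. The highest was in KCTD7, a gene of progressive myoclonic epilepsy, where 1 sgRNA went from 181 to 2056 counts, a log2 ratio of 4.02, while the gene value was 0.48. In KLHL12, the receptor for the COPII coat protein SEC31, 1 sgRNA went from 98 to 798 counts, a log2 ratio of 3.54, beside a gene value of 0.50. None of these genes apart from KCTD8 and KLHL33 had more than 1 such sgRNA.

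Below the 1st percentile were 12 receptor sgRNAs, or 4.35%, beside 7.53% of all targeting sgRNAs, in 10 genes. The lowest was in KLHL28, from 81 to 6 counts with a log2 ratio of -3.06, beside a gene value of -0.42. No receptor sgRNA lay more than 2 log2 units outside the range of the controls.

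The ligase shared by all these receptors was represented by CUL3 and the RING protein RBX1. CUL3 had 34, 84, 34 and 87 counts with DMSO and 1, 61, 29 and 750 with HQ461, for log2 ratios of -3.74, 0.06, 0.29 and 3.62 and a gene value of 0.18. The first of these rests on a single count and has a counting interval from -9.91 to -1.98, so the sgRNAs of CUL3 disagreed in both directions. RBX1, which also serves CUL4 and other cullins, had the fifth highest value of the library at 6.45, with sgRNAs from 3.35 to 9.33. Its sgRNAs had 4, 2, 45 and 115 counts with DMSO and 36, 75, 7185 and 51747 with HQ461. The lower log2 ratios of RBX1 thus rest on few DMSO counts. KEAP1, the kelch receptor for NRF2 that A549 cells carry in mutant form, stood at -0.16, with 251, 443, 318 and 181 counts with DMSO and 103, 229, 236 and 155 with HQ461.

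NEDD8 must be attached to a cullin for the ligase to be active, and CAND1 exchanges the receptors. A list of 12 genes covered this machinery and other regulators of cullin ligases, which serve other cullins too. Of these, 6 were at or above 1, beside 9.01% of all genes, and none at or below -1, beside 7.69%. The median of the 12 was 1.10. The 6 were GLMN at 8.43, NAE1 at 4.20, CAND1 at 3.95, UBE2M at 3.70, UBA3 at 2.27 and DCUN1D3 at 1.22. The list was drawn up with earlier results of these data known, so its share is given as description only. The UBE2M value was that of sgRNAs with 10 counts with HQ461 and 0 with DMSO. The middle sgRNAs of UBA3 had 3 and 28 counts with HQ461 and 0 and 7 with DMSO. Both values thus rest on few counts, and the summed counts gave 3.31 and 2.93 on the log2 scale. Another list, of 22 kelch and BTB receptors under other names, had a median of -0.02, close to that of the 69 receptor genes. In it TNFAIP1 and RHOBTB2 (1.08) were at or above 1, beside 9.01% of all genes. IVNS1ABP (-1.10) and BTBD3 (-1.03) were at or below -1, beside 7.69%.

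Of the 10 receptor genes past the threshold, KCTD8 and KLHL3 stayed past it under all 11 other ways of processing the counts. Values ran from 1.92 to 3.48 for KCTD8 and from -2.43 to -1.54 for KLHL3. The minimum DMSO count and leaving out chromosome 17 and proximal 11q removed no sgRNA of KCTD8 or KLHL3. These alternatives could therefore not change their values. Several alternatives move all genes alike, so the other genes past the threshold were read relative to the median of all genes in the same setting. Read in this way, SPOP, KCTD2, KCTD15, KLHL11 and KCTD9 stayed above 1 in every alternative that held them, with total-count values of 1.57, 1.56, 1.48, 1.45 and 1.18. KLHL33 lost the threshold with the highest sgRNA removed (-0.40), as did KLHL1 (-0.82), and KBTBD12 lost it with the mean over sgRNAs (-0.82).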

How the data were processed

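Counts of reads per sgRNA were deposited as 1 table, made by the authors with MAGeCK 0.5.9.2 and not normalized. The 2 replicates that the labels name for each condition appear as 1 column per condition. A test over replicates had been planned and was not run. The members, gene lists and alternatives were chosen with earlier results of these data known.

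Counts were scaled by median-ratio size factors over all 77441 sgRNAs (0.833 for HQ461 and 1.20 for DMSO), 273 sgRNAs at 0 in both columns were dropped, and log2 ratios were taken after adding a pseudocount of 1. Ratios of summed counts quoted for a gene beside its main value used no pseudocount, and their 95% intervals are exact binomial. The alternative with summed counts per gene added the pseudocount of 1 to the sums and has no interval. Named genes were SPOP, SPOPL, the 10 highest and 10 lowest members, members past 1 or -1, on chromosome 17 or in a paralog group, and pathway genes past 1 or -1. Other genes named for a single sgRNA, a uniform range or a known role were chosen after their values were seen.

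Gene positions and coding sequences came from GENCODE 44 (GRCh38): 17761 genes were placed by symbol, 955 by an older symbol and 395 not at all. Neighbours were the 10 nearest placed library genes on each side, members left out. Protein identity was computed from translated canonical transcripts. The code was checked on simulated data. One pathway gene is not reported here. Tools were Python 3.11.15, numpy 2.4.6, pandas 2.3.3, scipy 1.17.1, Biopython 1.88, matplotlib 3.10.9 and edgeR 4.0.16 (TMM factors only).

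Alternatives were scaling by total counts, TMM or control sgRNAs, pseudocounts of 0.5 and 5, a minimum of 30 normalized DMSO counts, the mean or summed counts per gene, removal of the highest or lowest sgRNA, and leaving out chromosome 17 and proximal 11q.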

Additional observations from a re-analysis of the deposited data

How the results depend on the processing

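The median over the receptor genes, -0.08, moved together with that of all genes: it was -0.77 with total counts, -0.11 with TMM factors, -0.045 with control scaling, 0.046 with the mean over sgRNAs, 0.19 with summed counts, -0.32 with the highest and 0.27 with the lowest sgRNA removed, and -0.12 without chromosome 17 and proximal 11q. Its distance from the median of all genes stayed between -0.066 and 0.034. The 7 genes at or above 1 became 1 with total counts, 15 with summed counts, 17 with the lowest sgRNA removed and 4 without chromosome 17 and proximal 11q, where the shares of all genes were 2.72%, 18.1%, 18.2% and 5.69%. The 3 genes at or below -1 became 21 with total counts, 1 with summed counts and 11 with the highest sgRNA removed, beside 32.1%, 3.68% and 17.4% of all genes. KLHL33 reversed to -0.71 with its highest sgRNA removed. The causes of these moves were not tested. No paired analysis was possible because replicates of a condition share 1 column, so leaving out a replicate was not run either. Depth limits the low end: 21 receptor sgRNAs had under 30 counts with HQ461 and 1 with DMSO.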

Other observations

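Known partners and substrates of these receptors formed a list of 22 genes with a median gene value of -0.43, beside -0.02 over all genes. Of the 22, 4 were at or below -1, beside 7.69% of all genes, and 3 at or above 1, beside 9.01%. Nothing about the list as a whole is read from these values. RHOA, the GTPase marked by KCTD10, KCTD13 and TNFAIP1, was the 4th lowest gene of the library at -3.86. Its sgRNAs had 90, 48, 142 and 43 counts with DMSO and 1, 1, 8 and 2 with HQ461, and the summed counts gave -4.22 on the log2 scale (95% counting interval -5.19 to -3.40). None of its 20 nearest library genes on chromosome 3 was as low, and their median was -0.39.

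The other genes at or below -1 were BRD3 at -1.58, the Hedgehog transcription factor GLI2 at -1.23 and the nuclear receptor coactivator NCOA3 at -1.16. In BRD3 a pair of sgRNAs lay at -2.86 and -2.74 and the other pair at -0.41 and -0.21, so its gene value stands for none of them. The sgRNAs of GLI2 ran from -2.93 to 0.20 and those of NCOA3 from -1.44 to 0.20. Summed counts gave -1.47 for BRD3, -0.60 for GLI2 and -0.99 for NCOA3 on the log2 scale. WNK4, a kinase marked by KLHL3, stood at 1.58 and the KLHL12 substrate DVL2 at 1.33, and both lie on chromosome 17, whose genes had a median of 0.97.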
